A study of Mus musculus with 6 samples.

Results

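Open chromatin was described at 9 mouse genes of nucleic acid sensing and interferon signalling, Irf1, Irf3, Irf7, Stat2, Isg15, Ifit1, Ifit3, Ifih1 and Zbp1, in bone marrow stromal cells 8 weeks after chemotherapy. A peak belonged to a gene when its summit lay inside the gene or within 100 kb of it and no other protein-coding gene was nearer. By this rule 245 of 525802 peaks, summed over 6 libraries, belonged to 7 of the 9 genes. No peak was nearest to Ifit1 or Ifit3, because summits around them lay closer to, or inside, other genes of the Ifit cluster.

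Chromatin was assayed by ATAC-seq: the Tn5 transposase inserts adapters where DNA is accessible, and fragments pile up as peaks over open stretches. The cells were mesenchymal stem and progenitor cells (MSPCs), sorted for tdTomato from the bone marrow of female Lepr-Cre;LSL-tdTomato+/- mice, in which Cre driven by the leptin receptor gene switches on a red reporter in stromal cells and in all their descendants. The DOX group had received doxorubicin, an anthracycline that poisons topoisomerase II and breaks DNA, as 4 intravenous doses of 5 mg/kg at intervals of 1 week, starting at 8 to 10 weeks of age. The PBS group had received phosphate-buffered saline on the same schedule. Each group had 3 libraries, made 8 weeks after treatment and called biological replicates by their titles. How many mice went into a library is not stated, so that p-values measure only the spread between these libraries.

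Interferon genes act in layers. Sensors such as MDA5, the product of Ifih1, which binds long double-stranded RNA, and ZBP1, which binds Z-form nucleic acids and can start cell death, detect foreign or misplaced nucleic acid. The kinases downstream switch on IRF3 and IRF7, the factors that turn on type I interferon genes. Secreted interferon then acts through its receptors on a complex that includes STAT2 and IRF9 and binds the interferon-stimulated response element, while interferon gamma acts mainly at gamma-activated sequences. IRF1 is itself induced by interferon gamma and binds much the same elements. ISG15, a ubiquitin-like modifier, and IFIT1 and IFIT3, which act against foreign RNA, are among the most strongly induced products. DNA damage can also switch on these genes, since broken DNA that reaches the cytosol is bound by cGAS and signals through STING. None of the 9 genes encodes cGAS or STING, and the values of Cgas and Sting1 are given below with the wider pathway.

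Elements of this kind could be read in the RefSeq promoter sequences (assembly GRCm38.p6, which mm10 displays), which run from 250 bases before to 50 bases after a listed start. Of the 9 genes 8 had such a window, and Zbp1 was not in the table. The core of the interferon-stimulated response element was searched as GAAA, any 2 bases and GAAA again, and the gamma-activated sequence as TTCNNNGAA, on both strands and with overlaps counted. The first was found in 1131 of 32851 windows of all genes, or 3.44%, and in the windows of 5 of the 8 genes, Stat2, Isg15, Ifit1, Ifit3 and Ifih1. The second was found in 8.30% of all windows and, of the 8 genes, in Irf1. Neither was found in the windows of Irf3 and Irf7. A match is a description of letters and not evidence of binding. The stretches that hold them are shown 5′ to 3′ on the strand of the gene, with the matched letters in capitals, to show where the matches lie beside the summits described below. The stretch of Isg15, chr4:156200849-156200918 on the minus strand, holds 3 overlapping matches. Those of Ifit1, chr19:34640764-34640833, Ifit3, chr19:34583359-34583428, and its near-copy Ifit3b, chr19:34607755-34607824, hold 2 each on the plus strand. Those of Stat2, chr10:128270258-128270327 on the plus strand, and Ifih1, chr2:62646206-62646235 on the minus strand, hold 1 each. The last stretch is the gamma-activated sequence of Irf1, chr11:53769894-53769963 on the plus strand.
Isg15: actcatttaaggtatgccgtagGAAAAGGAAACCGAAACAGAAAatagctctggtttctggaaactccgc
Ifit1: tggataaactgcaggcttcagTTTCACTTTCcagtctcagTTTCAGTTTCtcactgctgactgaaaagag
Ifit3: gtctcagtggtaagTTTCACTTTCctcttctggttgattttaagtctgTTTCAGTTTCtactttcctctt
Ifit3b: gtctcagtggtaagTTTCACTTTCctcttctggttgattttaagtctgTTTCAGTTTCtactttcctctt
Stat2: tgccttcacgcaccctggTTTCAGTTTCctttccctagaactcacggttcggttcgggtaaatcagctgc
Ifih1: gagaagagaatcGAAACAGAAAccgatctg
Irf1: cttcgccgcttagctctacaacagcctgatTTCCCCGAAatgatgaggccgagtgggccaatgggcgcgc
The matches of Ifit1 began 104 and 85 bases before the listed start, and those of Isg15 78, 72 and 66 bases before it. The match of Stat2 began 222 bases before the start and that of Irf1 90 bases before it, while that of Ifih1 lay 33 to 42 bases after the start, in the transcribed part. The shown stretches of Ifit3 and Ifit3b have the same letters.

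The libraries differed in depth. The deposited lists held 91026, 91060 and 100642 peaks in DOX replicates 1 to 3, against 88348, 89264 and 65462 in PBS replicates 1 to 3. Background coverage recovered from the lists was 1.72, 1.67 and 2.22 fragments per position in DOX and 1.27, 1.10 and 0.558 in PBS, so that the shallowest DOX library was 1.31 times as deep as the deepest PBS library. Depth and treatment therefore cannot be told apart in any count of peaks or any difference of ranks. To set lists of the same length side by side, the strongest 65462 peaks of each library by −log10 p were kept. A peak is given below by its rank in that list, where rank 1 is the strongest, and these are called equal-length lists. Equal length does not make the depth equal. The weakest peak kept had 20, 21 and 28 fragments at its summit in DOX libraries, against 16, 14 and 5 in PBS libraries. Starts of MSPC marker genes were open, meaning that a summit lay within 1 kb, in all 6 libraries for 14 of 15 genes with a listed start, and Pdgfra was open in some. The same was true of 0 of 6 B cell, 0 of 9 T and NK cell and 0 of 10 myeloid and dendritic marker starts. It was true of 2 of 9 erythroid and megakaryocyte and 4 of 8 endothelial marker starts. Of the T and NK cell genes only Eomes had a peak in any library, in PBS replicates 1 and 3. Starts of myeloid and dendritic genes with a peak numbered 1, 0 and 1 in DOX and 2, 1 and 2 in PBS, and these were Cd68 and S100a8. The blood cell marker Ptprc had no start peak in any library. MSPC starts were thus mostly open and B cell starts were not. With 4 endothelial and 2 erythroid and megakaryocyte starts also open, the markers do not settle the purity of the sort.

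Of the 9 genes, 8 had an open start in all 6 libraries, and the exception was Ifit3. For Zbp1, which has no listed start, the end of the span at chr2:173218959 was used. Over all genes with a listed start, 56.3% were open in every library. The order of the 8 starts was set by the mean rank over the 6 libraries. Stat2 and Irf1 stood first, and only 7.71% and 10.7% of the 9718 open starts of all genes had a stronger peak. Zbp1, Isg15 and Ifih1 were near the middle, with 38.2%, 46.6% and 48.1% of open starts stronger. Irf3, Ifit1 and Irf7 came last, with 62.5%, 62.8% and 65.7%. Ranks of neighbours in this order overlapped over the libraries, except that all 6 libraries ranked Irf1 above any rank of Zbp1 and Ifih1 above any rank of Irf3. The 8 starts thus fell into 3 bands.

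**Figure D1:**
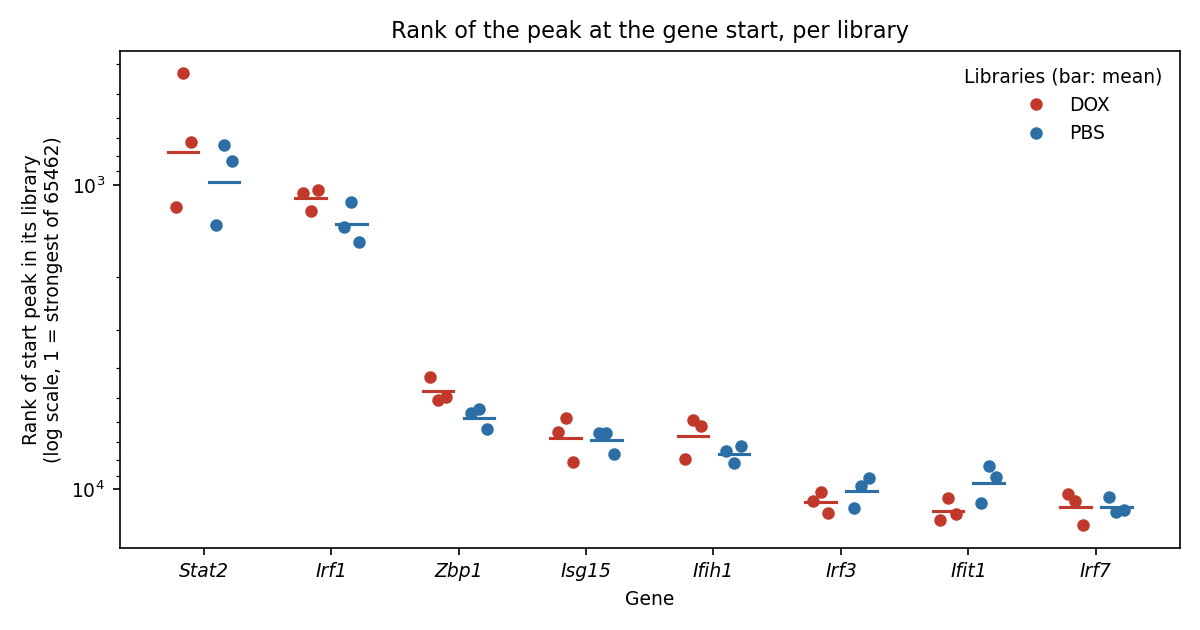
Rank of the peak at the gene start in each library (points, log scale, rank 1 at the top being the strongest of 65462 peaks) for 8 interferon genes, with DOX libraries left of PBS libraries and bars at the group means. Stat2 and Irf1 lie above the rest in all 6 libraries, and the groups are apart at Zbp1 alone.

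Ranks of the peaks at gene starts changed little after DOX. The test was limma on the normal score of the rank (the rank turned into a value on a standard normal curve, so that a positive difference means a stronger peak after DOX), over the 49098 regions with a peak in all 6 libraries and with Benjamini-Hochberg adjustment over all of them. No region of any gene passed an adjusted p of 0.05, so that the called share of all regions was 0%, and 13.0% had an unadjusted p under 0.05. The same fit on simulated shifts of 0.5 in 200 regions recovered 70.5% of them with 8 false calls. The simulated noise was drawn independently for each library, with a spread smoothed over regions of similar mean score. Real regions differ from each other in spread, so the recovery in the real data can be lower. Smaller shifts were not simulated. Differences at regions assigned to the 9 genes ran only from -0.264 to 0.214, so the recovery at such sizes is not known. Of the 20 regions assigned to the 9 genes and tested, 0 were called and 1 had an unadjusted p under 0.05. The starts of Stat2, Irf3 and Ifit1 are not among the 20, since their peaks counted for neighbouring genes. Their unadjusted p-values in the same limma fit were 0.289, 0.391 and 0.0409. The median difference, DOX minus PBS, was 0.0171 in these 20 regions and 0.0154 in all regions.

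Of the sensors, Zbp1 had start ranks of 4267, 5066 and 4959 in DOX libraries, against 5627, 5431 and 6351 in PBS libraries. It was the only start where the groups did not overlap, with each DOX library stronger than each PBS library. Ranks did not overlap in this direction in 10.9% of all regions and in the other direction in 7.90%. The difference at Zbp1 was 0.107 (SE 0.0598, limma adjusted p = 0.464), and the peak was wider in DOX libraries (1547, 1568 and 1486 bp) than in PBS libraries (1271, 1309 and 1196 bp). Wider peaks went with DOX in the lists as a whole too, where the median width of kept peaks was 505, 516 and 542 bp in DOX and 439, 476 and 328 bp in PBS. Ifih1 ranked 7941, 5920 and 6173 in DOX libraries and 7471, 8200 and 7182 in PBS libraries, and the groups overlapped. Its difference was 0.0798 (SE 0.0626, limma adjusted p = 0.616), and its summits lay 51 to 65 bases after the start, next to the match to the response element shown above.

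Of the factors, Irf1 ranked 1061, 1212 and 1039 at its start in DOX libraries and 1370, 1133 and 1535 in PBS libraries. PBS replicate 2 lay among the DOX libraries, and the difference was 0.0791 (SE 0.0686, limma adjusted p = 0.656). Stat2, whose product works with IRF9, ranked 1179, 429 and 722 in DOX libraries and 1353, 736 and 833 in PBS libraries. DOX replicate 2 had the strongest start of Stat2, yet DOX replicate 1 was weaker than PBS replicates 2 and 3, and the difference was 0.103 (SE 0.0945, limma adjusted p = 0.674). Its summit lay 40 to 143 bases before the start of Stat2 and inside the span of Apof, an apolipoprotein gene that overlaps Stat2 by 753 bp, so that by the nearest-gene rule the peak counted for Apof.

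Irf3 ranked 10873, 10189 and 11914 at its start in DOX libraries and 11522, 9745 and 9148 in PBS libraries. The groups overlapped, and the difference fell on the other side of 0, at -0.0545 (SE 0.062, limma adjusted p = 0.746). The span of Irf3 begins 9 bp from that of Bcl2l12, which lies on the opposite strand, and the summit, 311 to 353 bases before the start of Irf3, counted for Bcl2l12. A peak there cannot be given to a single gene of the pair. Irf7, the factor that amplifies the interferon response, ranked 10361, 10883 and 13109 in DOX libraries and 10607, 11831 and 11717 in PBS libraries. The DOX libraries spanned the whole range of the 6 libraries, with a difference of -0.00219 (SE 0.0623, limma adjusted p = 0.993).

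Of the induced genes, Isg15 ranked 6459, 5802 and 8118 in DOX libraries and 6525, 6512 and 7635 in PBS libraries. DOX libraries held both the strongest and the weakest start of Isg15, and the difference was 0.0112 (SE 0.0643, limma adjusted p = 0.96). Its summits lay 25, 89 and 25 bases before the start in DOX libraries and 25, 25 and 52 in PBS libraries. None fell within the 3 matches shown above, which run from 78 to 57 bases before the start. Ifit1 ranked 12576, 10640 and 12046 in DOX libraries and 11085, 8363 and 9090 in PBS libraries. DOX replicate 2 was stronger than PBS replicate 1, so that the groups overlapped, although the mean rank was weaker after DOX (11754 ± 1000) than after PBS (9512.7 ± 1409; SD, n = 3 each). The difference at Ifit1 was -0.142 (SE 0.064, unadjusted p = 0.0409 and limma adjusted p = 0.363). Its summit lay 79 to 117 bases before the start, at or near the 2 matches, and counted for Ifit1bl1. The span of Ifit1bl1 holds the whole of Ifit1, and the start of Ifit1bl2 lies 61 bp away on the minus strand. The peak therefore cannot be given to Ifit1 alone.

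Differences of both signs were seen at starts with a match to the response element and at starts without one. Starts with a match had differences of 0.103 at Stat2, 0.0798 at Ifih1, 0.0112 at Isg15 and -0.142 at Ifit1. Starts with no match to it had 0.0791 at Irf1, -0.00219 at Irf7 and -0.0545 at Irf3. None of these passed the test, and a link between match and difference was not tested.

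**Figure D2:**
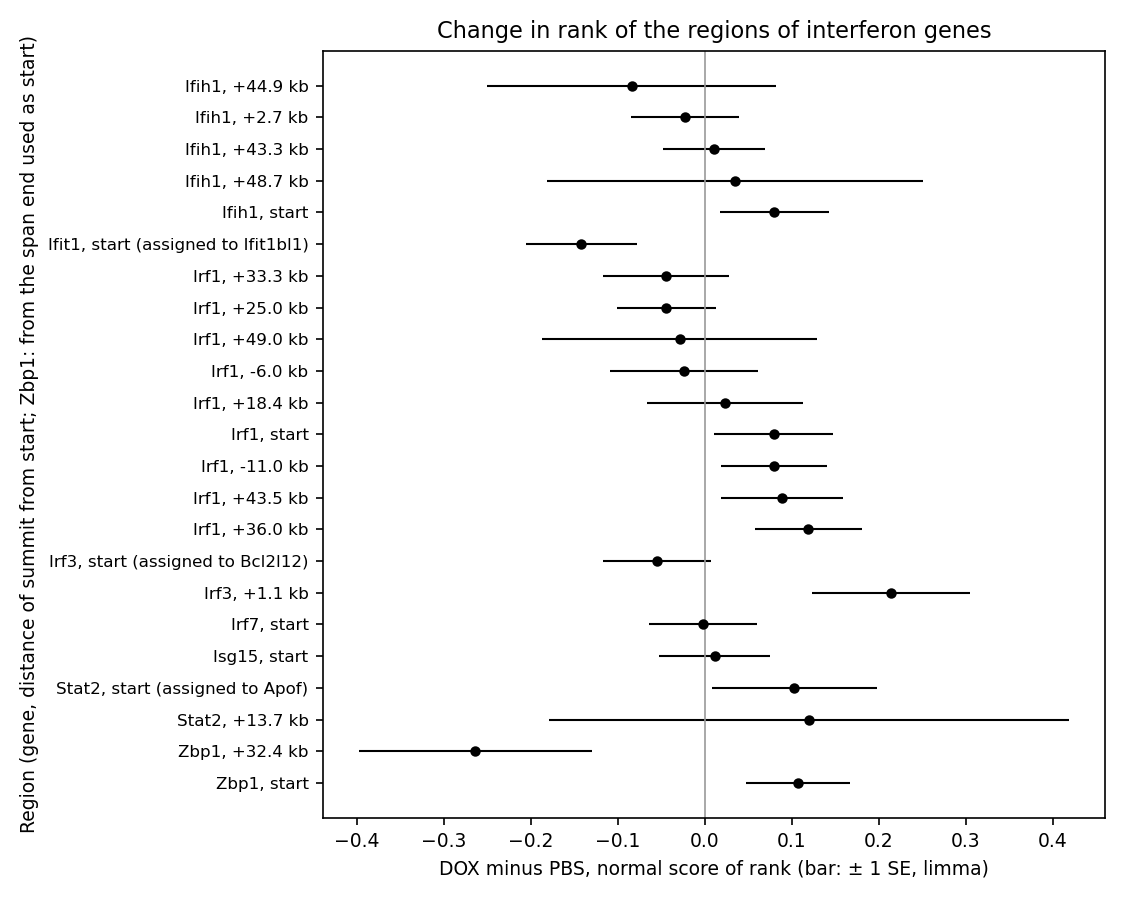
Difference in the normal score of the rank, DOX minus PBS, of each region of the interferon genes with a peak in all 6 libraries, with bars of 1 SE from limma; positive values are stronger after DOX. Values run from -0.264 (Zbp1, 32.4 kb from the end of its span that was taken as the start) to 0.214 (inside Irf3), and none passed the adjusted threshold.

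Fold enrichment at the starts, the authors' ratio of the summit to a constant background, cannot be compared between libraries, since it rises with depth, but it shows how far each start stood out within its library. It was 165 to 221 at Stat2 in DOX libraries and 120 to 180 in PBS libraries, over summit pileups of 448 to 705 and 186 to 377 fragments. At Irf7, last of the 8 starts by mean rank, it was 75.7, 80.8 and 77.9 in DOX libraries and 67.0, 63.0 and 39.8 in PBS libraries. The lowest fold of the 8 starts in DOX libraries was 65.1, at Ifit1 in DOX replicate 1. The weakest peak kept in the equal-length lists had a fold of 7.72 to 9.0 in DOX libraries and 3.85 to 7.49 in PBS libraries. All 8 starts were thus far above the limit of detection in every library.

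Ifit3 had no peak at its start in any of the 6 deposited lists, and the nearest peak lay 9472 to 9553 bp from its span in every library. Its start and that of Ifit3b are near-copies: 259 of 274 aligned bases of the promoter windows were the same, or 94.5%, with an unbroken run of 169 identical bases. Reads from such copies cannot be placed with certainty, and the sources used here do not give the filter on them, so the absence of a peak at Ifit3 does not show closed chromatin. Ifit3b had a start peak in 4 of 6 libraries, with ranks of 51487 and 45841 in DOX replicates 2 and 3 and of 47354 and 55220 in PBS replicates 1 and 2, and its peaks carry the same doubt. Ifit2, the neighbour on the other side, had a start peak in all libraries, with ranks of 17154, 18700 and 16850 in DOX and 13983, 17008 and 16632 in PBS. The Ifit cluster thus had open starts at Ifit2 and Ifit1 in both groups, with no start peak at Ifit3. Between Ifit3 and Ifit1, a region at a listed start of Ifit1bl1 had a peak in all libraries. Its ranks were 34650, 45248 and 48998 in DOX and 48586, 37227 and 50897 in PBS.

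**Figure D3:**
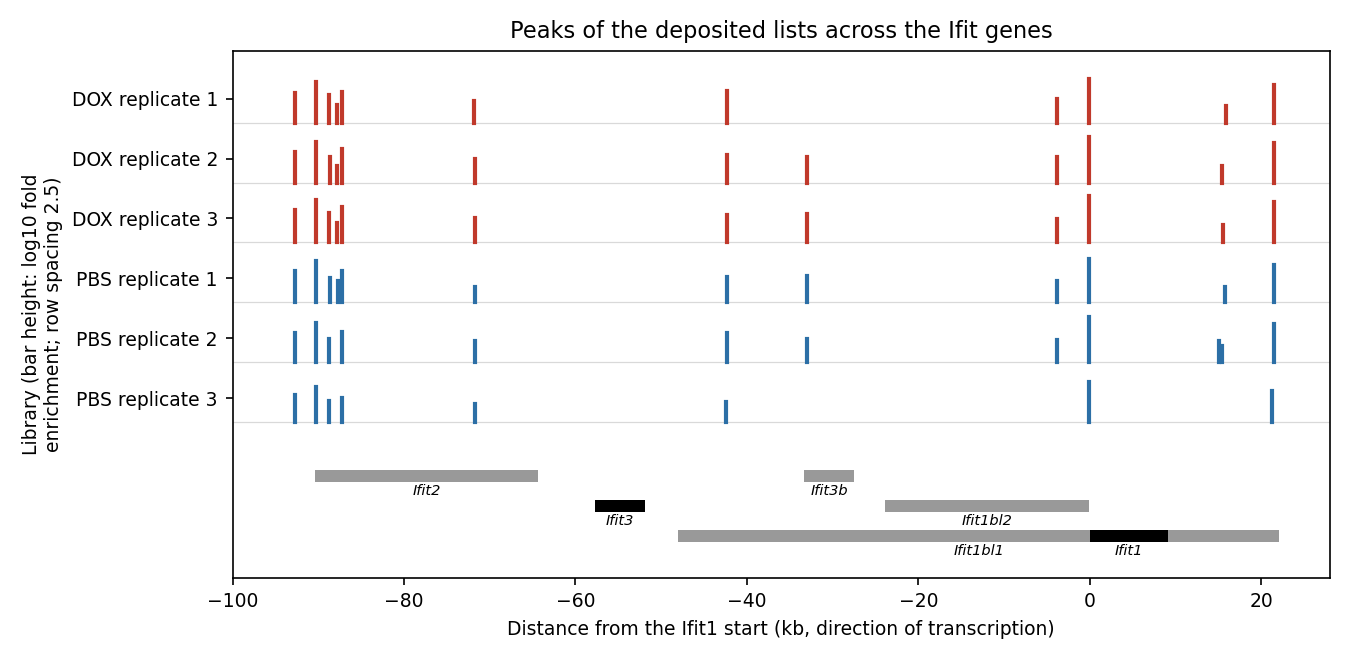
Summits of all deposited peaks along the Ifit cluster, by distance in kb from the start of Ifit1, for DOX libraries (upper rows) and PBS libraries (lower rows), with bar height on the log10 of the fold enrichment and gene spans below (Ifit1 and Ifit3 in black). Every library has a tall peak at Ifit1 and at the start of Ifit2, and none has a peak in Ifit3.

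The 9 genes held 30 regions in the equal-length lists, 5 of them at starts and 25 elsewhere. Of the 30, 20 had a peak in all libraries and 5 in a single library. Of these regions 12 belonged to Irf1 and 11 to Ifih1. Stat2 and Zbp1 had 2 each, and Irf3, Irf7 and Isg15 had 1 each. None of the 30 had a peak in all libraries of a treatment and in none of the other, against 0.792% of 78613 regions for DOX alone and 0.303% for PBS alone. Ranks of the groups did not overlap in 3 of the 20 tested regions with DOX stronger, the start of Zbp1, a region inside Irf3 and a region after Irf1, and in 1 with DOX weaker. Over all regions these shares were 10.9% and 7.90%.

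The region inside Irf3, chr7:44998478-44999080, had the largest positive difference of the 20. Its ranks were 22307, 18732 and 21245 in DOX libraries and 22923, 24615 and 30443 in PBS libraries, with PBS replicate 3, the shallowest library, ranking it lowest. The difference was 0.214 (SE 0.0909, unadjusted p = 0.031 and limma adjusted p = 0.336). Without PBS replicate 3 it was 0.126, below the 0.259 of the region chr10:128284015-128284401 inside Stat2. A second region inside Irf3, chr7:44999774-45000066, was listed only in the full lists of the 3 DOX libraries, at ranks of 85412, 67066 and 74953 with folds of 4.78, 7.86 and 7.14. All 3 ranks lie past the end of the equal-length lists, and so past the whole list of PBS replicate 3, which has 65462 peaks. The lists of PBS replicates 1 and 2, with 88348 and 89264 peaks, run past all 3 ranks. They did not hold the region either. Both libraries were shallower than every DOX library, so depth and treatment cannot be told apart at this region. The largest negative difference was at the region 20053 bp beyond the far end of Zbp1, chr2:173186335-173186914. Its ranks were 38218, 38869 and 42645 in DOX libraries and 35045, 30436 and 33920 in PBS libraries, a difference of -0.264 (SE 0.134, limma adjusted p = 0.417), and of -0.0157 when ranks were taken as shares of the full lists. The start of Zbp1 and this region thus differed in opposite directions, and neither difference passed the test.

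Inside Stat2 the peaks were weak. The region chr10:128282932-128283225 ranked 59944, 49180 and 48107 in DOX libraries and 56378 in PBS replicate 2, and was not listed in PBS replicates 1 and 3. The region chr10:128284015-128284401 was listed in all, at 50995, 52169 and 54891 in DOX libraries and 55274, 58303 and 49740 in PBS libraries (difference 0.12, SE 0.299, limma adjusted p = 0.898). Inside Ifih1 the strongest regions after the start were chr2:62602726-62603292, near the far end of the gene, and chr2:62643395-62644173, 2662 bases after the start. The first ranked 11507, 11200 and 12113 in DOX libraries and 10896, 12121 and 12345 in PBS libraries. The second ranked 13855, 15417 and 14510 in DOX libraries and 14258, 12926 and 15317 in PBS libraries. Both overlapped between groups, with differences of 0.0102 (SE 0.0585) and -0.0227 (SE 0.0625).

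By covered length, Irf1 carried most of the open chromatin of the 9 genes. Its strongest region was not the start but chr11:53761364-53764745, a region of 3382 bp whose summit lay 5966 bp before the start and which spans the microRNA gene Mir7671. It ranked 742, 847 and 712 in DOX libraries and 1192, 579 and 523 in PBS libraries. PBS libraries held both the strongest and the weakest value, and the difference was -0.024 (SE 0.0848, limma adjusted p = 0.932). Downstream of Irf1 lies the long noncoding RNA gene Gm12216, chr11:53785489-53859256, and 8 of the 12 regions counted for Irf1 overlap it. Among these, chr11:53805142-53806808 had the largest difference of the Irf1 regions, with ranks of 3626, 3803 and 4418 in DOX libraries and 4451, 5529 and 4936 in PBS libraries (difference 0.119, SE 0.0615, limma adjusted p = 0.425). The region chr11:53799135-53804827 ranked 4024, 2714 and 3781 in DOX libraries and 3575, 3637 and 2408 in PBS libraries, and the groups overlapped. The nearest-gene rule gives these regions to Irf1 because Gm12216 is not protein-coding, and the peaks do not show which gene they serve.

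Fewer peaks were listed at Irf1 after DOX, and they covered more sequence. The equal-length lists held 12, 12 and 11 peaks of Irf1 in DOX libraries, against 17, 17 and 30 in PBS libraries. Every DOX library had fewer than every PBS library, and PBS replicate 3 had by far the most. The means were 11.7 ± 0.577 in DOX and 21.3 ± 7.51 in PBS (SD, n = 3 each), a difference of -9.67 with an exact permutation p of 0.1 (two-sided), the lowest value possible with 3 libraries a group. Without PBS replicate 3 the difference was -5.33. Peak numbers of DOX libraries all lay below those of PBS libraries in 1.64% of the 15450 genes with a peak, and 3 of these 15450 genes had a larger drop in their means, with overlapping groups in each. The other 6 genes with an assigned peak together had 13, 15 and 15 peaks in DOX libraries and 15 in each PBS library.

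The groups were apart at Irf1 in number of peaks and overlapped in number of regions. When overlapping peaks of all libraries were merged into regions, Irf1 had 10, 10 and 9 regions in DOX libraries and 10 in each PBS library (exact permutation p = 1.0). Over the 15266 genes with a region, region numbers lay higher in every DOX library in 2.74% and lower in 0.648%. Its peaks covered 38.1, 37.9 and 42.0 kb in DOX libraries and 24.0, 29.1 and 17.4 kb in PBS libraries. The region chr11:53771979-53791851, which runs from inside Irf1 into Gm12216, held 2, 2 and 1 peaks in DOX libraries and 7, 5 and 15 in PBS libraries. The longest peak in this stretch was 17.6, 16.1 and 19.6 kb long in DOX libraries and 3.38, 8.34 and 1.66 kb long in PBS libraries. Its strongest peak ranked 16984, 20218 and 16685 in DOX libraries and 23860, 15437 and 16504 in PBS libraries, and the groups overlapped. Splitting was also more frequent in PBS libraries over all genes, with 1.027, 1.021 and 1.017 peaks per region in DOX libraries and 1.048, 1.034 and 1.106 in PBS libraries. At Irf1 the values were 1.2, 1.2 and 1.22 in DOX and 1.7, 1.7 and 3.0 in PBS. The values over all genes are means over regions of every width, and other broad regions were not set beside Irf1. Covered length at Irf1 was 877, 847 and 901 bp per Mb of all covered sequence in DOX libraries and 633, 709 and 580 bp in PBS libraries. Depth was lower in every PBS library and lowest in PBS replicate 3, and its part in the splitting was not tested.

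**Figure D4:**
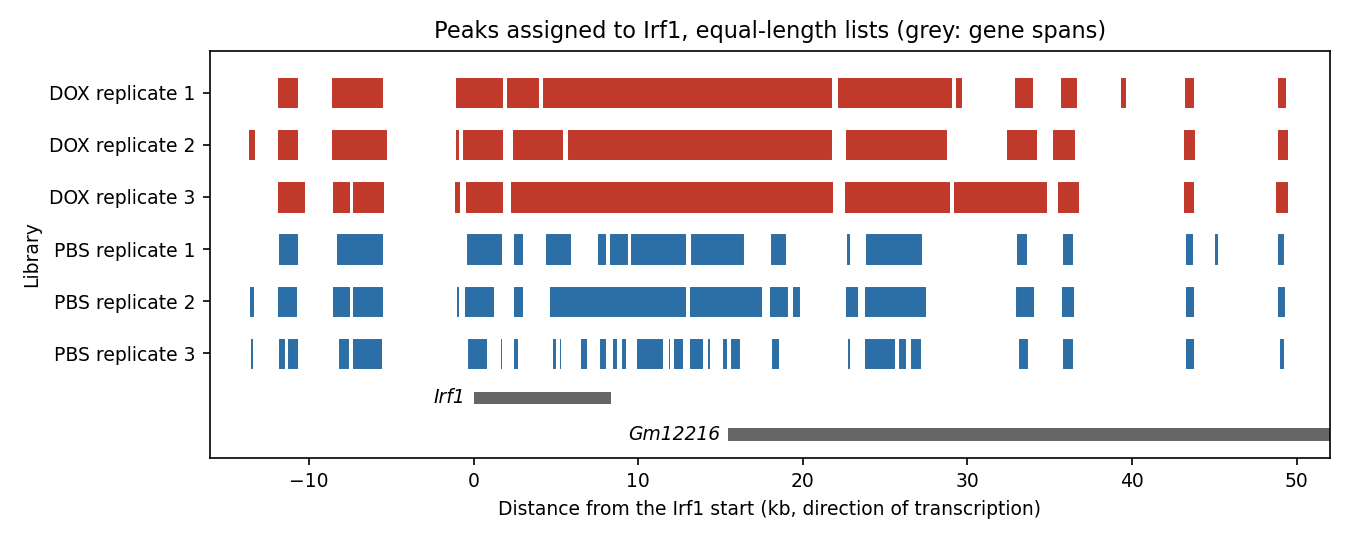
Peaks assigned to Irf1 in the equal-length lists, by distance in kb from its start, in DOX libraries (red, upper rows) and PBS libraries (blue, lower rows), with the spans of Irf1 and Gm12216 in grey. Between about 2 and 22 kb the DOX libraries have 1 or 2 peaks and the PBS libraries have 5 to 15.

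Peak numbers of the other genes overlapped between groups in the equal-length lists. Ifih1 had 6, 8 and 8 peaks in DOX libraries and 8 in each PBS library, and Stat2 had 2, 2 and 2 in DOX libraries and 1, 2 and 1 in PBS libraries (exact permutation p = 0.4). Irf7 had 1 in each DOX library and 2, 1 and 2 in PBS libraries, which merged into a single region in all 6. Zbp1 had 2, and Isg15 and Irf3 had 1, in every library. In the full lists, where deeper libraries list weaker peaks, Stat2 had 3, 4 and 3 peaks in DOX libraries and 1, 2 and 1 in PBS libraries, and Irf3 had 2 in each DOX library and 1 in each PBS library. Both had p = 0.1 in the exact permutation test. In these lists 6.32% of the 16166 genes with a peak had more peaks in every DOX library and 0.476% had fewer.

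**Figure D5:**
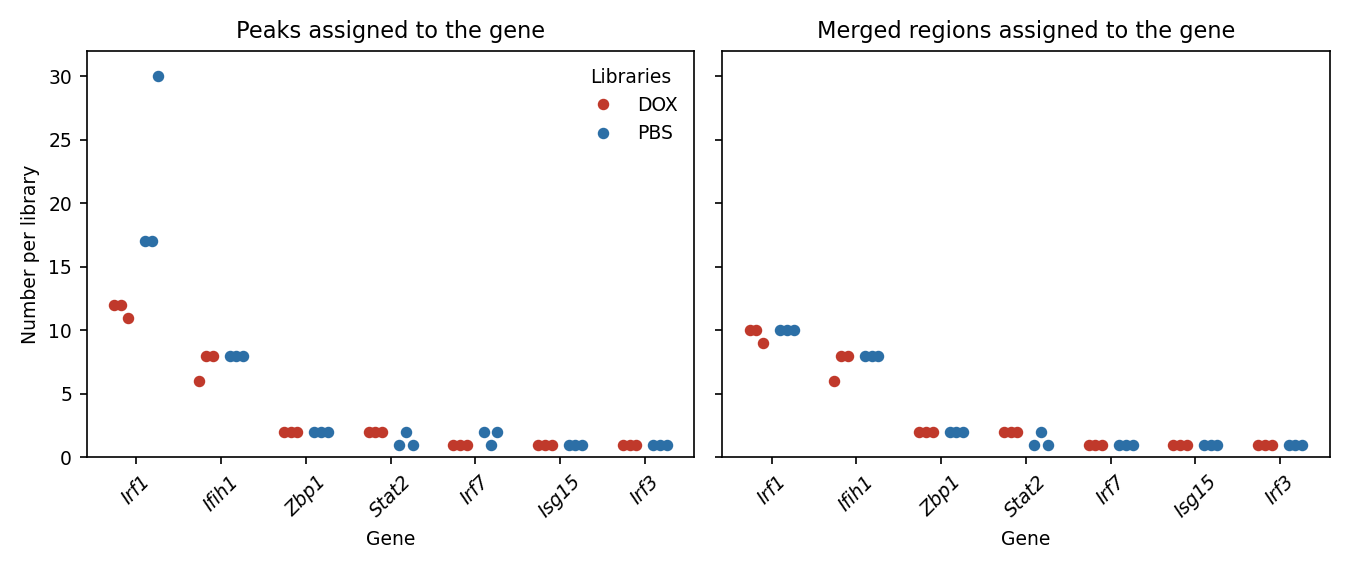
Number of peaks (left) and of merged regions (right) assigned to each gene in each library of the equal-length lists, with DOX libraries left of PBS libraries. At Irf1 the DOX libraries hold 11 to 12 peaks and the PBS libraries 17, 17 and 30, whereas the merged regions number 9 to 10 in all 6.

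The wider pathway was described with 3 lists, 25 genes of nucleic acid sensing, 22 of interferon signalling and 48 interferon-stimulated genes. Of those with a listed start, 16 of 20 sensing genes, 14 of 15 signalling genes and 36 of 42 stimulated genes were open in all 6 libraries, together 85.7% against 56.3% of all genes. The exceptions with no start peak in any library were Ifi203 and Tlr9 of the sensing genes and Oas1a, Oas3, Sp100 and Samd9l of the stimulated genes. Irf4, Aim2, Myd88, Ifit3b and Ifi44 were open in some libraries. The response element core was in the windows of 3 of 20 sensing genes, 2 of 15 signalling genes and 19 of 42 stimulated genes. The gamma-activated sequence was in those of 4, 5 and 10 genes of the same lists. Over all genes the shares were 3.44% and 8.30%, counted by window and not by gene, so they are not directly comparable. Of the 225 pathway regions tested, 0 were called and 33 had an unadjusted p under 0.05, against 6361 of 49098 (13.0%) over all regions. The median difference of the 225 was 0.0279, against 0.0154 over all regions. At 78 pathway starts whose region had a peak in all libraries, of which 11 were gene ends used for want of a listed start and which lay in 76 regions, 39 differences were positive and 39 negative. A region can hold a peak in every library while a summit falls outside the 1 kb window in some, as at Myd88. The groups did not overlap at 8 of these with DOX stronger and at 9 with DOX weaker, against the 10.9% and 7.90% of all regions.

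The sensor of the cytosolic DNA pathway, Cgas, ranked 12613, 14244 and 14742 at its start in DOX libraries and 16882, 16435 and 16099 in PBS libraries, with each DOX library stronger. Its difference was 0.132 (SE 0.0623, unadjusted p = 0.0499 and limma adjusted p = 0.385). Sting1, its adaptor, ranked 15570, 14133 and 14444 at a gene end in DOX libraries and 18782, 13298 and 18164 in PBS libraries, and the groups overlapped (difference 0.0954, limma adjusted p = 0.611). Both were chosen after their values were seen, for the pathway they stand for. Of the 20 sensing starts, Cgas was the only one where the groups were apart with DOX stronger, and 3 were apart with DOX weaker. These were Ticam1 (-0.217, unadjusted p = 0.0161), Samhd1 (-0.146, unadjusted p = 0.0195) and Ddx58 (-0.0501, unadjusted p = 0.429), with limma adjusted p-values of 0.28, 0.294 and 0.768. By peak number, 3 of the 95 pathway genes lay higher in every DOX than in every PBS library, and 1 lay lower. Some of the 95 had no peak in any library. The shares over the 15450 genes with a peak were 2.01% and 1.64%. Rnaseh2c, a subunit of the nuclease that removes RNA from DNA, had 2 peaks in each DOX library and 1 in each PBS library. Mlkl, the effector of necroptosis that acts below ZBP1 and RIPK3, had 2, 2 and 3 in DOX libraries and 1 in each PBS library. Jak1, a kinase of the interferon receptors, had 18, 18 and 17 in DOX libraries and 13, 16 and 14 in PBS libraries. Jak2, the kinase that pairs with it at the interferon gamma receptor, had 6, 6 and 5 in DOX libraries and 7 in each PBS library, and its merged regions, 5 in each DOX library and 6, 6 and 5 in PBS libraries, overlapped.

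The pathway genes most like each of the 8 open starts were found by the mean absolute difference in rank, in percent of the list, over the 6 libraries, among 77 pathway genes. Irf1 was nearest to Znfx1, with a mean difference of 0.0721 percentage points, and Stat2 to Ifngr1, with 0.369. Ifih1 was nearest to Cxcl9 (0.83), Zbp1 to Il10rb (0.847) and Isg15 to Cmpk2 (0.913 percentage points). Irf7 and Irf3 were both nearest to Dtx3l, at 1.68 and 2.39 percentage points, and Ifit1 was nearest to Eif2ak2, at 2.83. Likeness here describes levels over 6 libraries that share depth and list length.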

How the data were processed

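ATAC-seq libraries of sorted MSPCs, 3 DOX and 3 PBS, were described from the list of peaks that the authors deposited for each library. The submitters' processing notes give the build as mm10 and name, without saying what each did, MACS2 2.2.7.1, Bowtie2 2.4.5, Picard 2.10.9, DiffBind 3.16.0, Trim Galore 0.6.6, MultiQC 1.7 and FastQC 0.11.5. The sources used here do not give caller settings, read filters or the shift for the Tn5 cut. The deposited score, the fold enrichment (a ratio of the summit pileup plus 1 to the background plus 1), the −log10 p and the −log10 q are the authors' values for single peaks and are not scaled between libraries. The last deposited column gives the summit as bp from the start of the peak. Depth, the background fragments per position, was solved from the steps of the deposited fold values, and made 100% of pileups whole to within 0.05. It is proportional to read depth only if fragments are of equal length.

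Peaks on chromosomes 1 to 19 and X were put in order of −log10 p, and each library kept its strongest 65462. Overlaps of at least 1 bp merged peaks into regions, each library's strongest peak standing for the region. Ranks became normal scores and were fitted with limma 3.58.1 (trend and robust) where all 6 libraries had a peak, with Benjamini-Hochberg adjustment, after a test on simulated data. Peaks per gene were tested by exact permutation (two-sided). Gene spans (21627 protein-coding genes) and promoter windows came from RefSeq, assembly GRCm38.p6. Rigi was matched as Ddx58, and Mx1 and Mx2 were left out since the table does not hold them as protein-coding.

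The 9 genes, the lists and the tests were chosen with earlier results of these data known. Text names all 9 genes, their strongest regions and up to 3 more by size of difference, pathway genes whose peak numbers do not overlap, and the most alike start for each gene. Alternatives covered list length, measure of strength, overlap, spread, replicate block, distance, window and leaving out each library.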

Additional observations from a re-analysis of the deposited data

How the results depend on the processing

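No region of the 9 genes was called by limma under any alternative. Over 294 alternative values for 23 regions, the lowest adjusted p was 0.176 and the sign turned in 31. Of all regions, 2 were called in lists of 32731 peaks, the shorter length tried, and 29 with replicate block (26 stronger and 3 weaker after DOX), none of them at the 9 genes. Leaving out each library gave 0 to 71 called regions of all, with 71 without PBS replicate 1, and 0 to 1 pathway regions, the 1 being at Ifngr1 without PBS replicate 1. The labels do not say whether replicate numbers pair the samples. Deviations of same-numbered libraries correlated at 0.105, -0.094 and 0.0384, and those of differently numbered libraries at -0.165 to 0.134. With so few libraries these values cannot settle it. The number of the 9 genes whose peak numbers did not overlap was 1 (Irf1), 3 in the deposited lists (Irf3 and Stat2 higher and Irf1 lower after DOX), and 0 in lists of 32731 peaks, by merged regions, or with folds of at least 20. It was 1 to 3 on leaving out each library, with 3 without PBS replicate 2 (Stat2, Irf1 and Irf7). The peak number of Irf1 differed by -9.67, by -0.333 in merged regions and by -1.33 with folds of at least 20. Pathway genes that did not overlap numbered 4, 0 in lists of 32731 peaks, and 5 to 8 on leaving out each library, with 8 without DOX replicate 1, 7 without PBS replicate 1 and 8 without PBS replicate 2. Regions listed after a single treatment numbered 0, 1 in the deposited lists (inside Irf3), and 0 to 1 on leaving out each library (Ifih1 without DOX replicate 3 and Stat2 without PBS replicate 2). The 8 open starts were the same in number in every alternative, including either gene end in place of the listed start, an alternative chosen after seeing the data. The cause of these shifts was not tested. Absence from a list means below that library's threshold.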
